A study of Mus musculus with 12 samples.

Results

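The genes described here are the 8 Sox transcription factor genes of neural stem cells, Sox1, Sox2, Sox3, Sox5, Sox6, Sox8, Sox9 and Sox21, found by symbol among the 17365 genes of the count table. All 8 were present, and all 8 passed the filter on low counts that left 13312 genes for testing. Expression was measured by bulk RNA-seq in adult neural stem cells (NSCs) cultured from the subventricular zone (SVZ) of wild-type mice aged 6 to 8 weeks, used below passage 10 and plated at low density. Of the 2 lines, ANS4 came from MF1 mice and BL6 from C57BL6 mice, so that strain and line cannot be told apart. Both lines were grown for 3 days with EGF and FGF2 (EGF/FGF, proliferating cells), with BMP4 alone (BMP, called dormant or d-qNSCs by the study) or with BMP4 and FGF2 (BMP/FGF, called primed or p-qNSCs), each factor at 10 ng/ml. There were 2 biological replicates of each line in each condition, 12 libraries in all. EGF was absent from both BMP conditions, so that a comparison of either with EGF/FGF changes more than 1 factor.

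Sox proteins bind DNA through a high mobility group domain and bend it, usually next to a partner protein such as a POU factor. SoxB1 proteins (Sox1, Sox2 and Sox3) keep neural progenitors undifferentiated, and Sox2 is a standard NSC marker. Sox21 is a SoxB2 protein, a repressor that can counteract SoxB1 activity in progenitors. SoxD proteins (Sox5 and Sox6) carry no activation or repression domain of their own and act by pairing with other factors, while SoxE proteins (Sox8 and Sox9) are activators linked to glial fate, with Sox9 marking adult NSCs and astrocytes.

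The promoters shown are from 4 of the 7 members that rose in both BMP conditions (values below). These 4 differ in structure and in line dependence. Sox1 and Sox5 also rose and have windows that are not shown. The sequences are bases before a RefSeq transcription start (build GRCm38.p6), 5′ to 3′ on the gene's own strand. Bases inside a GENCODE vM21 exon of the same gene were left out, but exons of other genes were not checked. Capitals mark a searched motif. The windows are chr3:34649745-34649994 on the plus strand for Sox2, chr14:118237031-118237280 on the minus strand for Sox21, chr7:116038797-116038994 on the minus strand for the first of 6 listed starts of Sox6, and chr17:25570687-25570936 on the minus strand for Sox8.
Sox2: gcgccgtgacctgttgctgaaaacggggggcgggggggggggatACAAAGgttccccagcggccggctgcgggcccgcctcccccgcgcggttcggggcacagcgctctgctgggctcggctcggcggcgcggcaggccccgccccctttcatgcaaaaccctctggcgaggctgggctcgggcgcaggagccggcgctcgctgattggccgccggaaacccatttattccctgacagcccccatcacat
Sox21: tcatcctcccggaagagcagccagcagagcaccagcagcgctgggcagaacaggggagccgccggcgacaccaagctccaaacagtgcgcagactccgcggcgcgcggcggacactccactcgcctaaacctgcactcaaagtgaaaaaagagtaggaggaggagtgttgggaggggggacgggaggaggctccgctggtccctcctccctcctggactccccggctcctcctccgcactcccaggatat
Sox6: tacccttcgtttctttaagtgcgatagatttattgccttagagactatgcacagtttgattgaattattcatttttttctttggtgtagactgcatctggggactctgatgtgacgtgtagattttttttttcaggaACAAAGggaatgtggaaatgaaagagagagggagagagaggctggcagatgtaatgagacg
Sox8: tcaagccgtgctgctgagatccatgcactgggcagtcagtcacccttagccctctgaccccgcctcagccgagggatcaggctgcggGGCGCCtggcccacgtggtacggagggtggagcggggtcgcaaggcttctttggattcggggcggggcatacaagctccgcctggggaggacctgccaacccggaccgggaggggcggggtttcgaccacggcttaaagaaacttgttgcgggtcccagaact

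The motifs, searched on both strands, were the Sox core words ACAAAG and ACAATG, the POU octamer ATGCAAAT and the palindrome GGCGCC, which Smad proteins of the BMP pathway can bind. No 2 of these words matched the same bases in these windows. ACAAAG began 206 bases before the RefSeq start of Sox2 and 113 bases before the first Sox6 start. GGCGCC began 163 bases before the Sox8 start. The RefSeq start of Sox2, at position 34649995, lies upstream of the GENCODE gene, which begins at 34650405. Of the other Sox6 windows, not shown, numbers 2, 3, 4 and 5 also held ACAAAG, numbers 3 and 5 held ACAATG as well, and number 6 held none of the 4 words. In the Sox21 window none of the 4 words was found. The Sox5 window, not shown, held ACAATG 154 bases before its start. Of 32851 RefSeq promoter windows of 250 bases, 16.5% held ACAAAG, 10.7% ACAATG, 1.60% the octamer and 9.59% GGCGCC. The matches describe these windows only.

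In GENCODE vM21 coordinates (GRCm38), the SoxB1 genes lie at chr8:12395295-12400126 (Sox1), chr3:34650405-34652461 (Sox2) and chrX:60891366-60893430 (Sox3), and Sox21 lies at chr14:118233232-118237030. Each of these 4 genes has 1 exon and 1 annotated transcript. Sox5 at chr6:143828425-144781977 and Sox6 at chr7:115470872-116038796 are long genes with 14 and 16 annotated transcripts. Sox8 at chr17:25565892-25570686 has 3 transcripts, and Sox9 at chr11:112782224-112787760 has 1 transcript of 3 exons. Sox1 and Sox2 lie inside the long noncoding genes Sox1ot and Sox2ot on the same strand, with 0 shared exon bases.

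Library totals ran from 18069052 to 19451818 estimated counts, and the members held between 341 (Sox21) and 14845 (Sox9) counts in a library. Levels are given as CPM, counts scaled to TMM-adjusted library totals. Among the markers of NSCs and astrocytes, all 11 were in the table and tested, and their summed level per library was 8290.1 to 9149 CPM with EGF/FGF, 10826 to 12655 CPM with BMP and 15175 to 15821 CPM with BMP/FGF. The 5 microglial markers in the table, with Csf1r, Cx3cr1 and Tmem119 near 0, had a summed level of at most 14.7 CPM, and endothelial and pericyte markers summed to at most 7.71 CPM. Neuroblast markers, 9 genes of young neurons, summed to 58.4 to 62.4 CPM with EGF/FGF, 611 to 1208 CPM with BMP and 249.7 to 288 CPM with BMP/FGF. In bulk RNA, a change in the share of cells of a type and a change in RNA per cell cannot be told apart.

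Relative to EGF/FGF, 7 of the 8 Sox genes were higher in BMP and 1, Sox3, was lower. The same 7 were higher and Sox3 lower in BMP/FGF. Sox9 moved furthest (4.09-fold in BMP and 3.74-fold in BMP/FGF), followed by Sox6 (2.61-fold and 1.93-fold) and Sox21 (2.34-fold and 2.08-fold). The 2 comparisons share the EGF/FGF libraries. All calls used edgeR's quasi-likelihood test, two-sided, with Benjamini-Hochberg adjustment over the 13312 genes, at a false discovery rate (FDR) under 0.05.

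**Figure D1:**
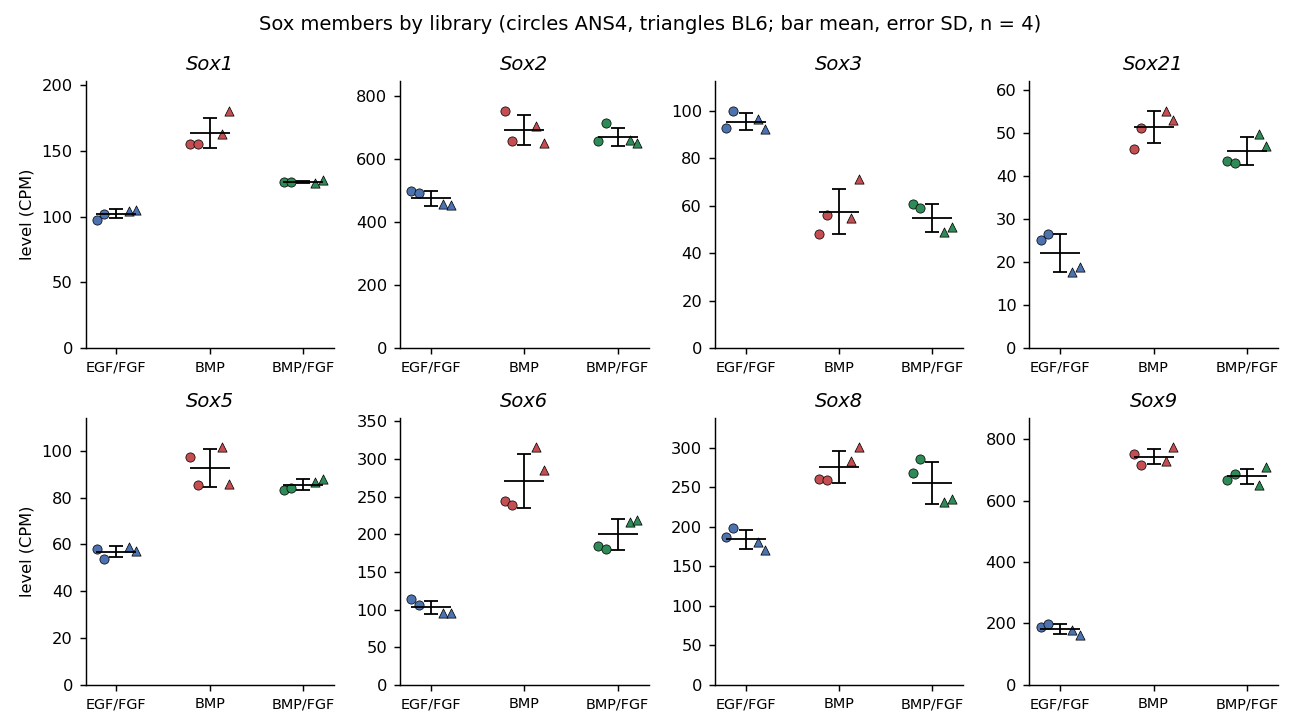
Level of each Sox gene (CPM, vertical axis from 0) in the 12 libraries by condition, with circles for ANS4, triangles for BL6, and the mean and SD of 4 libraries as a bar. For every member the EGF/FGF libraries do not overlap those of BMP or BMP/FGF, and Sox3 is the member whose EGF/FGF libraries are the higher ones. The share of all genes with such separation was not computed.

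These counts stand against a background in which most genes moved. Of all genes tested, 79.6% were called in BMP against EGF/FGF (40.8% higher and 38.8% lower), so that 8 called of 8 is near what the whole table gives, while 7 higher of 8 compares with 40.8%. In BMP/FGF against EGF/FGF, 78.9% were called (40.9% higher and 38% lower). The median log2 fold change of the members was 0.69 in BMP and 0.54 in BMP/FGF, beside 0.02 for all genes in each. Past the study's threshold of 1.5 on the log2 scale stood 1 member, Sox9, in each comparison, where 17.8% and 16.7% of all genes did. For each member the 4 libraries of either BMP condition did not overlap the 4 EGF/FGF libraries. The exact permutation test (two-sided, 70 divisions of 8 libraries) then necessarily gave 0.0286, the smallest p it allows. It did not take the line into account. The share of all genes whose libraries separate in the same way was not computed.

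Sox9, the SoxE activator that specifies glia and marks adult NSCs, showed the largest change. It stood at 187 and 198 CPM in ANS4 and 180.1 and 162 CPM in BL6 under EGF/FGF. With BMP it stood at 753 and 718 CPM in ANS4 and 729 and 774 CPM in BL6, and with BMP/FGF at 669 and 686 CPM in ANS4 and 651 and 710.2 CPM in BL6. Every library with BMP4 lay far above every EGF/FGF library. The rise over EGF/FGF was a log2 fold change of 2.03 ± 0.067 (SE, 95% interval 1.89 to 2.17, FDR = 1.15e-14) in BMP and a log2 fold change of 1.90 ± 0.066 (SE, 95% interval 1.76 to 2.04, FDR = 2.52e-14) in BMP/FGF. Both BL6 and ANS4 showed it, at 1.93 ± 0.07 (SE) in ANS4 and 2.13 ± 0.07 (SE) in BL6 for BMP.

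Sox8, the second SoxE gene and often coexpressed with Sox9, rose far less. Its level was 186 and 199 CPM in ANS4 and 181 and 170.2 CPM in BL6 under EGF/FGF. With BMP it was 259.9 and 259.6 CPM in ANS4 and 283 and 300.3 CPM in BL6, and with BMP/FGF 268 and 286 CPM in ANS4 and 231 and 235 CPM in BL6. Lines and conditions crossed here, as the 2 ANS4 libraries were the higher ones in BMP/FGF and the lower ones in BMP. The rise was a log2 fold change of 0.59 ± 0.075 (SE, 95% interval 0.43 to 0.74, FDR = 1.05e-06) in BMP and a log2 fold change of 0.47 ± 0.075 (SE, 95% interval 0.31 to 0.63, FDR = 1.61e-05) in BMP/FGF. Sox10, the third SoxE gene and the one that defines the oligodendrocyte lineage, was too low to be tested, with a mean of 0.271 CPM (named after its values were seen).

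Sox9 and Sox8 had nearly equal counts in EGF/FGF and parted in both BMP conditions. The log2 ratio of Sox9 to Sox8 counts was 0.0036 and -0.0049 in ANS4 and -0.0046 and -0.071 in BL6 under EGF/FGF. It was 1.43 ± 0.083 (SD, n = 4) in BMP and 1.42 ± 0.15 (SD, n = 4) in BMP/FGF, and the libraries of neither overlapped those of EGF/FGF. This ratio and the 3 others given below were chosen after the values were seen, so they are given as descriptions, and the exact permutation tests computed for them are not used.

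**Figure D2:**
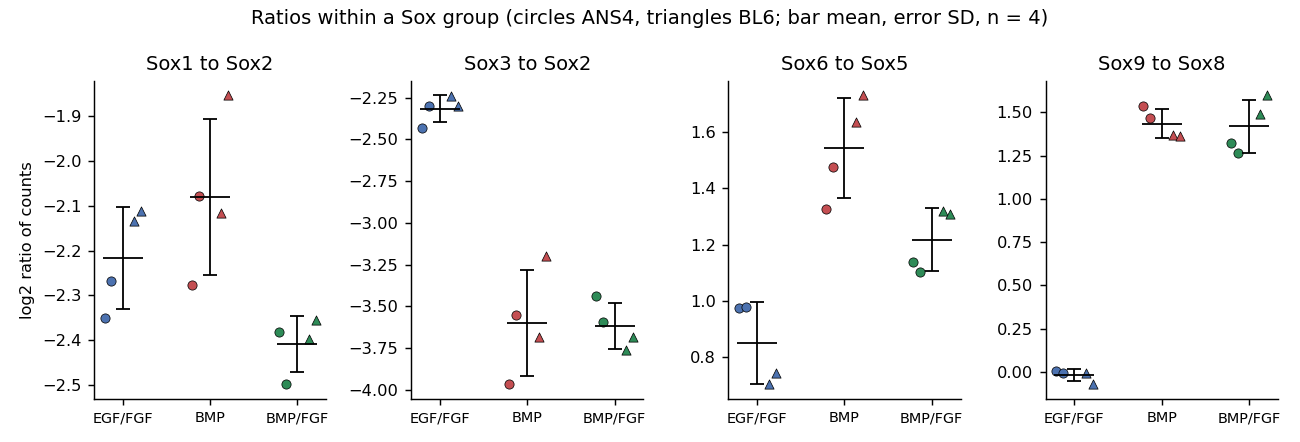
Log2 ratio of estimated counts within a library for 4 pairs of related Sox genes, by condition, with circles for ANS4, triangles for BL6, and the mean and SD of 4 libraries as a bar. The Sox9 to Sox8 ratio lies near 0 in EGF/FGF and at 1.43 in BMP and 1.42 in BMP/FGF, while the Sox3 to Sox2 ratio falls from -2.32 to -3.60 and -3.62.

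Sox2, the SoxB1 gene with the highest level per kilobase (values below), rose by a similar amount in both BMP conditions. Sox2 stood at 499 and 492 CPM in ANS4 and 456 and 456 CPM in BL6 under EGF/FGF. With BMP it stood at 754 and 657 CPM in ANS4 and 706 and 653 CPM in BL6, and with BMP/FGF at 658 and 714 CPM in ANS4 and 662 and 653 CPM in BL6. The BMP and BMP/FGF libraries overlapped each other and lay above all EGF/FGF libraries. The rise was a log2 fold change of 0.54 ± 0.06 (SE, 95% interval 0.42 to 0.67, FDR = 1.8e-07) in BMP and a log2 fold change of 0.50 ± 0.06 (SE, 95% interval 0.37 to 0.63, FDR = 5.79e-07) in BMP/FGF, and each line gave nearly the same value, at 0.51 ± 0.068 (SE) in ANS4 and 0.58 ± 0.069 (SE) in BL6 for BMP.

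Sox1, a SoxB1 gene of neural progenitors, rose in both BMP conditions and was lower in BMP/FGF than in BMP. It was 97.8 and 102 CPM in ANS4 and 104 and 106 CPM in BL6 under EGF/FGF. With BMP it was 156 and 156 CPM in ANS4 and 163 and 181 CPM in BL6, and with BMP/FGF 126 and 126 CPM in ANS4 and 126 and 128 CPM in BL6. The BMP/FGF libraries lay close together, between those of the other conditions. The changes from EGF/FGF were a log2 fold change of 0.68 ± 0.055 (SE, 95% interval 0.56 to 0.79, FDR = 2.79e-09) in BMP and a log2 fold change of 0.31 ± 0.055 (SE, 95% interval 0.19 to 0.42, FDR = 6.75e-05) in BMP/FGF. Relative to Sox2 counts in the same library, Sox1 was at a log2 ratio of -2.22 ± 0.11 (SD, n = 4) in EGF/FGF, -2.08 ± 0.17 (SD, n = 4) in BMP and -2.41 ± 0.063 (SD, n = 4) in BMP/FGF. All BMP/FGF libraries lay below those of both other conditions, which overlapped each other.

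Sox3, the third SoxB1 gene, went the other way. Its level was 92.6 and 100.1 CPM in ANS4 and 96.6 and 92.5 CPM in BL6 under EGF/FGF. With BMP it was 48.2 and 56.0 CPM in ANS4 and 55.0 and 71.1 CPM in BL6, and with BMP/FGF 60.6 and 59.1 CPM in ANS4 and 48.8 and 50.9 CPM in BL6. The 4 EGF/FGF libraries were the highest, and BMP held both the lowest library and the highest of the quiescent ones. The change was a log2 fold change of -0.73 ± 0.098 (SE, 95% interval -0.93 to -0.52, FDR = 2.1e-06) in BMP and a log2 fold change of -0.80 ± 0.098 (SE, 95% interval -1.01 to -0.59, FDR = 7.28e-07) in BMP/FGF. As a log2 ratio to Sox2, Sox3 was at -2.32 ± 0.08 (SD, n = 4) with EGF/FGF and lower with BMP, at -3.60 ± 0.32 (SD, n = 4), and with BMP/FGF, at -3.62 ± 0.14 (SD, n = 4).

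Sox21, the SoxB2 repressor, rose in both BMP conditions. It stood at 25.2 and 26.6 CPM in ANS4 and 17.7 and 18.7 CPM in BL6 under EGF/FGF. With BMP it stood at 46.4 and 51.1 CPM in ANS4 and 55.2 and 53.1 CPM in BL6, and with BMP/FGF at 43.5 and 43.0 CPM in ANS4 and 49.8 and 47.0 CPM in BL6. In EGF/FGF the BL6 libraries were the lower ones and in both BMP conditions they were the higher. The rise was a log2 fold change of 1.22 ± 0.11 (SE, 95% interval 0.99 to 1.46, FDR = 1.13e-08) in BMP and a log2 fold change of 1.06 ± 0.11 (SE, 95% interval 0.82 to 1.29, FDR = 9.34e-08) in BMP/FGF.

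The SoxD genes, whose products work together, both rose, and Sox6 rose more. Sox6 was 114 and 106 CPM in ANS4 and 95.8 and 95.6 CPM in BL6 under EGF/FGF. With BMP it was 244 and 238 CPM in ANS4 and 315 and 285 CPM in BL6, and with BMP/FGF 184 and 181 CPM in ANS4 and 216 and 218 CPM in BL6. The 3 conditions did not overlap. Sox6 changed by a log2 fold change of 1.38 ± 0.088 (SE, 95% interval 1.20 to 1.57, FDR = 8.41e-11) in BMP and a log2 fold change of 0.95 ± 0.087 (SE, 95% interval 0.76 to 1.13, FDR = 1.61e-08) in BMP/FGF.

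Sox5 was 58.2 and 53.6 CPM in ANS4 and 58.8 and 57.1 CPM in BL6 under EGF/FGF. With BMP it was 97.2 and 85.5 CPM in ANS4 and 101 and 85.8 CPM in BL6, and with BMP/FGF 83.4 and 84.0 CPM in ANS4 and 86.6 and 88.1 CPM in BL6. The BMP and BMP/FGF libraries overlapped in part, and both lay above EGF/FGF. Sox5 changed by a log2 fold change of 0.70 ± 0.064 (SE, 95% interval 0.56 to 0.84, FDR = 1.43e-08) in BMP and a log2 fold change of 0.59 ± 0.065 (SE, 95% interval 0.45 to 0.72, FDR = 1.67e-07) in BMP/FGF. The log2 ratio of Sox6 to Sox5 counts was 0.85 ± 0.15 (SD, n = 4) in EGF/FGF, 1.54 ± 0.18 (SD, n = 4) in BMP and 1.22 ± 0.11 (SD, n = 4) in BMP/FGF, and the 3 conditions did not overlap.

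The effect of FGF2 on BMP-treated cells was read from p-qNSCs against d-qNSCs, where Sox1 and Sox6 were lower with FGF2 and no member was called higher. Sox1 differed by -0.37 ± 0.055 (SE, FDR = 4.33e-05) and Sox6 by -0.44 ± 0.086 (SE, FDR = 0.000606) on the log2 scale. Of all genes, 41.4% were called (20.1% higher and 21.3% lower). With only 8 members, 2 called is near what the whole table gives. The members' median was -0.12, beside -0.0035 for all genes.

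For the other 6 members no difference between BMP/FGF and BMP passed the test. Sox9 differed by -0.13 ± 0.064 (SE, FDR = 0.111), with a 95% interval from -0.26 to 0.0035, although its BMP/FGF libraries all lay below its BMP libraries (exact permutation p = 0.0286), and it was called with scaling to library size only (FDR = 0.0317). Sox5 was called lower without BL6 BMP replicate 2 (FDR = 0.0442), and Sox21 with only the libraries of the 2 conditions (FDR = 0.0494). For Sox2 the interval ran from -0.17 to 0.082, for Sox5 from -0.25 to 0.021 and for Sox21 from -0.39 to 0.055. Sox3 and Sox8 had estimates of opposite sign in the 2 lines (values below).

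**Figure D3:**
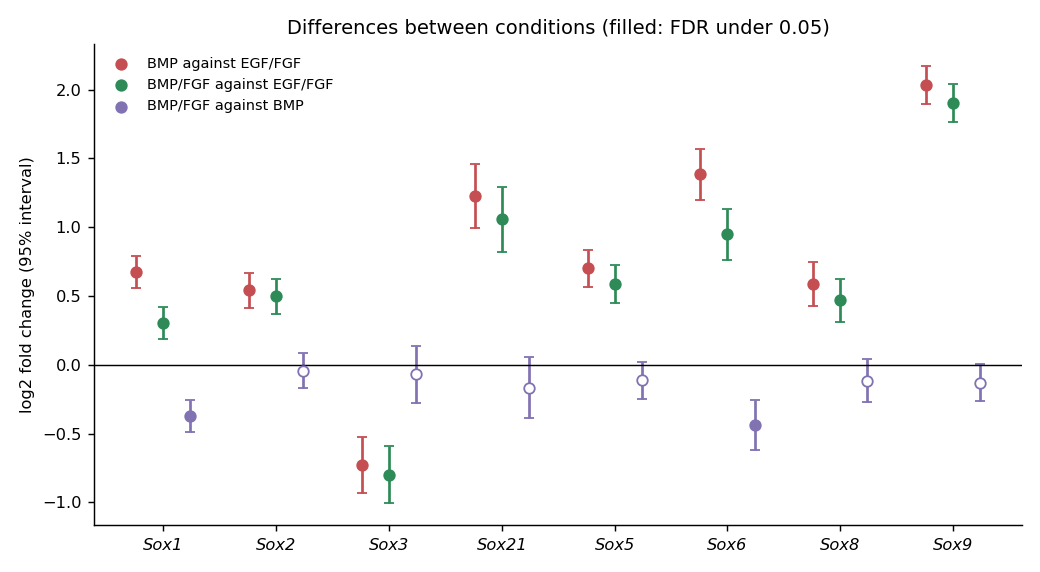
Log2 fold change of each Sox gene with its 95% interval (vertical axis) for BMP against EGF/FGF, BMP/FGF against EGF/FGF and BMP/FGF against BMP, with filled points at FDR under 0.05. All values against EGF/FGF are filled, with Sox9 at 2.03 and 1.90 and Sox3 at -0.73 and -0.80, and in BMP/FGF against BMP only Sox1 and Sox6 are filled.

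Markers of other cell states moved with these results. Of 8 tested neuroblast markers, all 8 rose from EGF/FGF to BMP (median log2 fold change 3.89), 7 were higher and 1 lower in BMP/FGF than in EGF/FGF (median 2.26), and all 8 were lower in BMP/FGF than in BMP (median -1.89). The largest of these changes among markers with a mean of at least 1 CPM was that of Dlx5, which rose from a mean of 0.0129 to 14.8 CPM and stood at 1.40 CPM in BMP/FGF. Their part in the Sox values was not tested. Among 10 proliferation markers all 10 were lower in each BMP condition, with medians of -2.50 in BMP and -3.42 in BMP/FGF, and all 10 were lower in BMP/FGF than in BMP (median -0.86). The largest falls were in Mki67 for BMP, at -2.88 ± 0.16 (SE, FDR = 9.27e-12), in Ccnb1 for BMP/FGF, at -3.86 ± 0.09 (SE, FDR = 3.02e-16), and again in Ccnb1 between the 2 BMP conditions, at -1.32 ± 0.09 (SE, FDR = 7.06e-09).

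The 2 lines were compared for each response by an interaction term. In BMP against EGF/FGF, 3 of 8 members responded differently, against 9.02% of all genes, and all 3 rose more in BL6. Sox21 rose by 0.91 ± 0.081 (SE) in ANS4 and 1.57 ± 0.084 (SE) in BL6, a difference of 0.66 ± 0.12 (SE, FDR = 0.00219). Sox6 rose by 1.13 ± 0.066 (SE) and 1.65 ± 0.066 (SE), a difference of 0.52 ± 0.092 (SE, FDR = 0.0023). Sox8 rose by 0.43 ± 0.063 (SE) and 0.73 ± 0.063 (SE), a difference of 0.30 ± 0.089 (SE, FDR = 0.0427). The Sox8 call was lost when any 1 library other than BL6 BMP replicate 1 was left out (FDR from 0.0574 to 0.17), and also with no filter on low counts (FDR = 0.0556), with limma on the log2 values (FDR = 0.0538) and with a replicate block (FDR = 0.0621). Without BL6 BMP replicate 1, Sox3 was called as well, with a line difference of 0.48 (FDR = 0.00508) in place of 0.30 (FDR = 0.188).

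In BMP/FGF against EGF/FGF, 2 of 8 differed between the lines, against 4.98% of all genes. These were Sox21, with a difference of 0.67 ± 0.12 (SE, FDR = 0.0035), and Sox6, with 0.46 ± 0.093 (SE, FDR = 0.00968). The Sox6 call was lost without ANS4 BMP/FGF replicate 2 (FDR = 0.0652), ANS4 EGF/FGF replicate 1 (FDR = 0.0559), BL6 BMP/FGF replicate 1 (FDR = 0.0506) or BL6 BMP/FGF replicate 2 (FDR = 0.0615). For Sox1, Sox2, Sox5 and Sox9 no line difference passed the test in any of the 3 comparisons.

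Between BMP/FGF and BMP, Sox3 and Sox8 differed between the lines, 2 of 8 against 13.5% of all genes. Sox3 was at 0.20 ± 0.1 (SE) in ANS4 and -0.34 ± 0.1 (SE) in BL6, a difference of -0.54 ± 0.14 (SE, FDR = 0.0182). Sox8 was at 0.092 ± 0.063 (SE) in ANS4 and -0.32 ± 0.063 (SE) in BL6, a difference of -0.41 ± 0.089 (SE, FDR = 0.00525). In BL6 alone both genes fell with FGF2, and in ANS4 neither estimate passed the test. The Sox3 call was lost without ANS4 BMP replicate 1 (FDR = 0.0858), ANS4 BMP/FGF replicate 1 (FDR = 0.0782), BL6 BMP/FGF replicate 1 (FDR = 0.0861) or BL6 BMP/FGF replicate 2 (FDR = 0.0564). Its value rested in part on 1 library, at -0.34 without BL6 BMP replicate 2 and -0.71 without BL6 BMP replicate 1, and it passed the test in both.

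**Figure D4:**
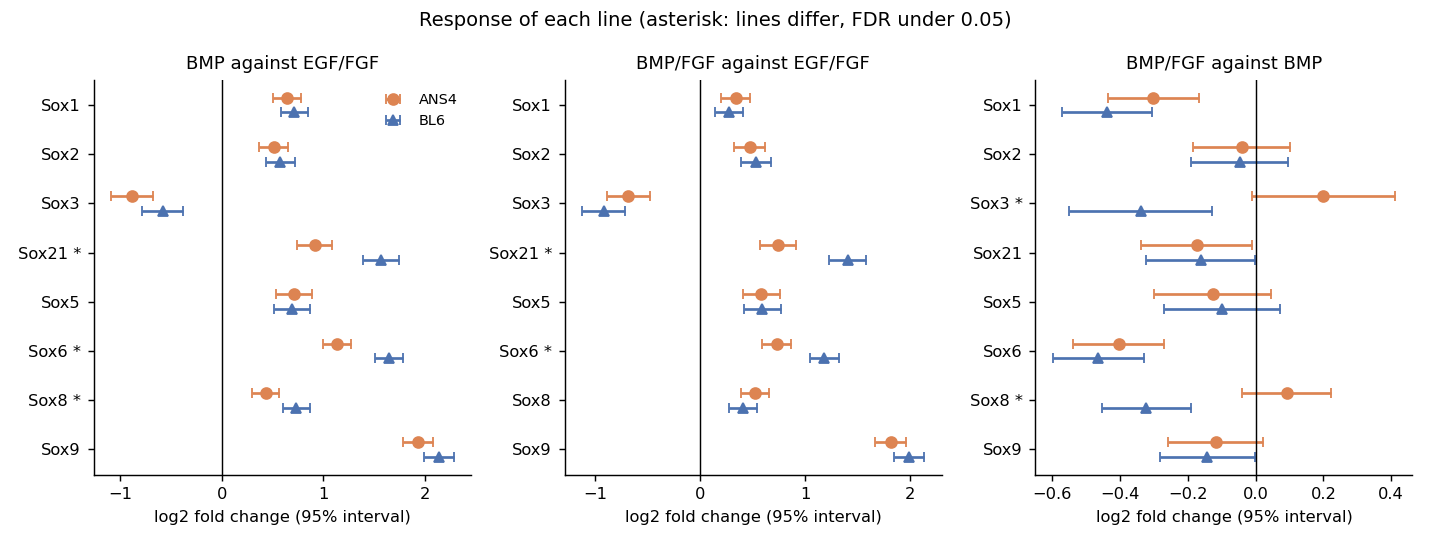
Log2 fold change with 95% interval (horizontal axis) of each Sox gene in ANS4 (circles) and BL6 (triangles), in 1 panel per comparison, with an asterisk where the lines differ at FDR under 0.05. Sox21 lies at 0.91 in ANS4 and 1.57 in BL6 for BMP against EGF/FGF, and Sox3 and Sox8 lie on opposite sides of 0 in BMP/FGF against BMP.

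The lines were also compared directly within each condition. In EGF/FGF, Sox21 was lower in BL6, at -0.51 ± 0.088 (SE, FDR = 0.00228), 1 of 8 against 6.75% of all genes. In BMP, Sox6 was higher in BL6, at 0.31 ± 0.064 (SE, FDR = 0.00178), 1 of 8 against 23% of all genes. The Sox6 call was lost with limma on the log2 values (FDR = 0.0591), while with library size only 4 members were called in BMP. In BMP/FGF 0 of 8 passed edgeR's test, against 0.736% of all genes, although the DESeq2 Wald test called 2, Sox6 and Sox8, and 3 members had an unadjusted p under 0.05. Sox21, the gene with the largest difference in response, differed between the lines by 0.15 ± 0.077 (SE, FDR = 0.168) in BMP. In the same BMP libraries the summed neuroblast markers were 611 and 621 CPM in ANS4 and 1147 and 1208 CPM in BL6, and their part in the line differences was not tested.

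Levels of different genes were compared per kilobase of the longest coding transcript in GENCODE. In EGF/FGF the order was Sox2, Sox8, Sox3, Sox9, Sox1, Sox6, Sox5 and Sox21, with Sox2 at 231 ± 11.1 CPM per kb, Sox8 at 61.3 ± 3.98 and Sox21 at 5.81 ± 1.18 (SD, n = 4). Sox3 (44.8 to 48.5) and Sox9 (39.2 to 47.9) overlapped. In BMP, Sox9 came second at 179.7 ± 6.05 CPM per kb, after Sox2 at 337 ± 23.1 and before Sox8 at 91.9 ± 6.57. Below these, Sox1, Sox6 and Sox3 overlapped in BMP. In BMP/FGF Sox3 overlapped both Sox1 and Sox6, while every Sox1 library lay above every Sox6 library. Sox21 and Sox5 overlapped in both. The places of Sox8, Sox6 and Sox5 depend on the transcript used, because their annotated transcripts differ most in length: with the median coding transcript, Sox8 stood above Sox9 in all 3 conditions.

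Of 9 other Sox genes in the table, 5 were tested. All 5 were lower in BMP/FGF than in BMP, where 21.3% of all genes were, with a median of -0.56. The 8 members also had estimates below 0 over both lines in that comparison, with 2 of them called. In ANS4, however, Sox3 and Sox8 had estimates above 0. The share of all genes below 0 was not computed, and their median was -0.0035. Against EGF/FGF, 3 of the 5 rose and 2 fell in BMP (40.8% and 38.8% of all genes). In BMP/FGF 1 rose and 3 fell (40.9% and 38% of all genes). Sox11, a SoxC gene of immature neurons, differed by -0.87 ± 0.085 (SE, FDR = 4.29e-07), and Sox4, its relative, by -0.40 ± 0.091 (SE, FDR = 0.00207). Both of these falls were larger in BL6. The line difference, BL6 minus ANS4, was -0.53 ± 0.089 (SE, FDR = 0.00103) for Sox11 and -0.53 ± 0.096 (SE, FDR = 0.00168) for Sox4. For Sox7, Sox12 and Sox13 no line difference passed the test in that comparison. Against EGF/FGF, Sox4 rose in BMP by 0.87 ± 0.092 (SE, FDR = 8.99e-08), while Sox11 was lower in BMP, at -0.32 ± 0.083 (SE, FDR = 0.00186), and lower still in BMP/FGF, at -1.19 ± 0.085 (SE, FDR = 4.45e-10). The changes in BMP also differed between the lines, by 0.46 ± 0.096 (SE, FDR = 0.0067) for Sox4 and 0.40 ± 0.086 (SE, FDR = 0.00771) for Sox11. Mean Sox11 went from 169 to 117 CPM in ANS4 and from 188 to 172 CPM in BL6. Sox12, the remaining SoxC gene, and Sox13, a SoxD gene, differed between BMP/FGF and BMP by -0.51 ± 0.095 (SE, FDR = 0.00039) and -0.56 ± 0.11 (SE, FDR = 0.000789). Both rose from EGF/FGF to BMP, by 0.29 ± 0.094 (SE, FDR = 0.00961) and 0.48 ± 0.11 (SE, FDR = 0.000674). Sox7, a SoxF gene of endothelium, was low, at means of 4.21 CPM with EGF/FGF, 1.10 CPM with BMP and 0.631 CPM with BMP/FGF, and it was called lower in all 3 comparisons.

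Among 12 partners and cofactors of Sox proteins, 7 rose and 4 fell from EGF/FGF to BMP (median 0.25), and 5 rose and 4 fell from EGF/FGF to BMP/FGF (median -0.03). The POU factor Pou3f1, a partner of Sox proteins, was lower in both, at -2.73 ± 0.19 (SE, FDR = 2.14e-10) in BMP and -2.83 ± 0.19 (SE, FDR = 1.75e-10) in BMP/FGF. The corepressor Tle1 rose by 0.98 ± 0.054 (SE, FDR = 1.12e-11) and 0.97 ± 0.054 (SE, FDR = 1.27e-11). In BMP/FGF against BMP, 0 were higher and 5 lower, most of all Pou2f1, at -0.81 ± 0.071 (SE, FDR = 1.41e-07).

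Genes that earlier work linked to Sox2 moved in both directions, as genes of the whole table did. Of 7 tested, 2 were higher and 5 lower in each comparison with EGF/FGF, with medians of -2.06 and -1.13. The chromatin protein gene Hmga2 was lower in both, at -5.59 ± 0.11 (SE, FDR = 2.99e-17) in BMP and -4.15 ± 0.093 (SE, FDR = 2.09e-16) in BMP/FGF, and the cytokine signalling inhibitor Socs3 rose by 1.53 ± 0.13 (SE, FDR = 4.51e-09) and 1.20 ± 0.13 (SE, FDR = 1.31e-07). From BMP to BMP/FGF, 4 were higher and 1 lower (median 0.36), with Hmga2 at 1.44 ± 0.15 (SE, FDR = 6.77e-07) and Socs3 at -0.33 ± 0.12 (SE, FDR = 0.0437).

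Cartilage matrix genes, the best known joint targets of Sox5, Sox6 and Sox9, stayed low in these cells. All 11 were in the table and together held 23.7 to 36.9 CPM in a library, and 4 were too low to test. Of the 7 tested, 3 rose and 2 fell in BMP (median -0.015), and 4 rose and 1 fell in BMP/FGF (median 1.12). Between the BMP conditions, 2 were higher and 2 lower with FGF2 (median -0.08). Col9a2 stood at a mean of 0.0905 CPM in EGF/FGF, 3.30 in BMP and 1.91 in BMP/FGF, while Col9a3 differed by -1.75 ± 0.17 (SE, FDR = 3.58e-08) in BMP and by 1.97 ± 0.17 (SE, FDR = 1.09e-07) between BMP/FGF and BMP.

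Of 3 genes described as joint targets of Sox9 and Nfia in gliogenesis, 2 were higher in BMP (median 1.68) and 3 in BMP/FGF (median 0.77). Mmd2 rose by 1.89 ± 0.14 (SE, FDR = 6e-10) and 3.03 ± 0.14 (SE, FDR = 1.69e-12), and it was higher again in BMP/FGF than in BMP, at 1.13 ± 0.13 (SE, FDR = 3.92e-06). Between these conditions 2 were higher (median 0.28), and Apcdd1 was lower, at -0.91 ± 0.13 (SE, FDR = 2.55e-05). Sox9 itself did not pass the test in that comparison.

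Markers of NSCs and astrocytes split, with 6 of 11 rising and 4 falling from EGF/FGF in BMP, and with 7 rising and 4 falling in BMP/FGF (medians 0.80 and 0.51). The water channel gene Aqp4 rose by 3.68 ± 0.12 (SE, FDR = 1.09e-14) and 4.09 ± 0.12 (SE, FDR = 3.81e-15). Fabp7, a fatty acid binding protein of radial glia, had the largest fall in BMP, at -2.39 ± 0.14 (SE, FDR = 3.55e-11), and Nes, the progenitor filament nestin, in BMP/FGF, at -2.30 ± 0.078 (SE, FDR = 1.8e-14). Between BMP/FGF and BMP, 6 were higher and 2 lower (median 0.28), with Fabp7 at 1.58 ± 0.14 (SE, FDR = 1.3e-07) and Prom1 at -0.98 ± 0.072 (SE, FDR = 1.68e-08).

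Of 6 tested oligodendrocyte lineage markers, 5 were higher and 1 lower in each comparison with EGF/FGF (medians 2.69 and 2.00), and 1 higher and 3 lower between BMP/FGF and BMP (median -0.45). Gpr17, a receptor of early oligodendrocytes, rose by 6.32 ± 0.28 (SE, FDR = 6.33e-13) and 5.51 ± 0.28 (SE, FDR = 3.87e-12). Their summed level was 78.7 to 98.1 CPM with EGF/FGF, 392 to 602 CPM with BMP and 441 to 468 CPM with BMP/FGF, with Sox10 and Mog near 0, and their part in the Sox values was not tested. Of the ependymal markers 2 were tested. Foxj1, the regulator of motile cilia, rose in both BMP conditions, at 1.71 ± 0.076 (SE, FDR = 6.67e-13) and 1.61 ± 0.076 (SE, FDR = 1.5e-12), and the other was called in neither. The 3 in the table summed to 61.9 to 81.6 CPM with EGF/FGF, 182 to 220 CPM with BMP and 189 to 197 CPM with BMP/FGF. In BMP, 1 of 2 tested microglial markers was lower and 2 of 3 tested endothelial and pericyte markers were higher.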

How the data were processed

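RNA was extracted with a Qiagen kit from 12 cultures (2 lines, 3 conditions, 2 biological replicates each). The authors trimmed the reads with Trim Galore 0.5.0, ran kallisto 0.44.0 on the mm10 transcriptome, summed transcripts to genes with Tximport, and deposited whole-number estimated counts. A second table deposited by the authors holds log2 values from the regularized logarithm of DESeq2 1.27.32, and it served here for 1 alternative. Estimated counts divide reads of shared sequence between genes and transcripts.

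Counts were analysed in R 4.3.3 with edgeR 4.0.16 (filterByExpr by condition, TMM, glmQLFit and glmQLFTest, two-sided), with condition and line as terms. A fit of 6 line and condition groups gave line differences. FDR was adjusted over all 13312 genes. Standard errors are the absolute log2 fold change divided by the root of F. Log2 CPM for likeness used a prior count of 2, and exact permutation tests used log2(CPM + 0.1). Also used were limma 3.58.1, DESeq2 1.42.0, Python 3.11.15, scipy 1.17.1 and pandas 2.3.3. On data simulated from these counts, edgeR recovered 88 of 94 genes changed by 1 on the log2 scale in BMP/FGF against BMP with 13 false calls over all sizes (13182 genes), and the line difference in that comparison recovered 69 of 96 with 9 false calls (13190 genes).

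The members and all gene lists were chosen with earlier results of these data known. All 8 members are named. Of the other lists, counts and medians are given with at most the largest rise and fall among called genes averaging 1 CPM or more, each other Sox gene at that level, and the 3 genes most like each member, of which 1 is not reported here. Alternatives were DESeq2 size factors, library size only, no filter, the DESeq2 Wald test, limma on the log2 values, no line term, a replicate block, the 2 conditions compared without the third, either line by itself, and leaving out libraries in turn. A block with crossed numbers and the ratios between members were added after seeing the data. Promoters came from RefSeq, with 6 of the 8 members found by symbol (not Sox3 and Sox9), and gene models from GENCODE vM21.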

Additional observations from a re-analysis of the deposited data

Results flagged for a closer look

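In 24 groups of 4 libraries, 1 value stood apart from the rest by Dixon's criterion, and chance alone flags about 1 group in 20. Sox2 in BMP/FGF was at 713.9 CPM in ANS4 replicate 2, with the other 3 libraries between 653 and 662 CPM (gap over range 0.856).

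The response of 4 members differed between the lines by the interaction test in edgeR. For Sox21 the difference, BL6 minus ANS4, was 0.66 in BMP against EGF/FGF and 0.67 in BMP/FGF against EGF/FGF, and for Sox6 it was 0.52 and 0.46. For Sox8 it was 0.30 in BMP against EGF/FGF and -0.41 in BMP/FGF against BMP. For Sox3 it was -0.54 in BMP/FGF against BMP.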

How the results depend on the processing

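Over 72 single results and 1416 recomputed values, 1321 kept their direction and side of the threshold, 47 changed their call, and 48 changed sign. Counts of members called against EGF/FGF stayed at 8 in both comparisons under every alternative. In BMP/FGF against BMP the count was 4 in BL6 libraries alone in place of 2, and 3 with library size only, with only the libraries of the 2 conditions, or without BL6 BMP replicate 2. For BL6 against ANS4 in BMP it was 4 with library size only and 0 with limma on the log2 values in place of 1, and in BMP/FGF it was 1 with library size only and 2 with the DESeq2 Wald test in place of 0. With single libraries left out, the count of line differences ranged from 2 to 4 in BMP against EGF/FGF, from 1 to 2 in BMP/FGF against EGF/FGF and from 1 to 2 in BMP/FGF against BMP, and for BL6 against ANS4 from 1 to 2 in EGF/FGF, from 1 to 4 in BMP and from 0 to 3 in BMP/FGF. The cause of these shifts was not tested. Between the 2 replicates of a group, the mean chi-square per gene was 12.4 in BL6 BMP and 2.14 to 4.76 in the other groups. Leaving out BL6 BMP replicate 1 gave 4 in BMP and 4 for the line difference in BMP against EGF/FGF, and leaving out ANS4 BMP replicate 2 gave 2 in BMP. Leaving out either BL6 BMP replicate gave 2 in EGF/FGF and 3 in BMP/FGF.

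The 48 log2 values that changed sign were called neither as reported nor under the alternative. In ANS4 libraries alone BMP/FGF against BMP was 0.20 for Sox3 and 0.092 for Sox8. With library size only the line difference of Sox5 was 0.017, -0.032 and -0.049 in BMP against EGF/FGF, BMP/FGF against EGF/FGF and BMP/FGF against BMP, that of Sox21 in the last was -0.064, and BL6 against ANS4 in BMP/FGF was -0.024 for Sox1 and -0.022 for Sox9. The line difference of Sox2 in BMP/FGF against BMP was 0.0026 with DESeq2 size factors, 0.0026 with the DESeq2 Wald test and 0.0083 with limma. The other sign changes came with 1 library left out, and the values over all such fits are given as a range. For BMP/FGF against BMP it ran from -0.17 to 0.058 for Sox3. For the line difference in BMP against EGF/FGF it ran from -0.0045 to 0.15 for Sox1, -0.032 to 0.15 for Sox2 and -0.14 to 0.099 for Sox5. For the line difference in BMP/FGF against EGF/FGF it ran from -0.051 to 0.067 for Sox5. For the line difference in BMP/FGF against BMP it ran from -0.096 to 0.0901 for Sox2, -0.089 to 0.15 for Sox5, -0.13 to 0.016 for Sox6, -0.078 to 0.054 for Sox9 and -0.061 to 0.092 for Sox21. For BL6 against ANS4 in EGF/FGF it ran from -0.081 to 0.0301 for Sox3 and -0.0054 to 0.11 for Sox5. For BL6 against ANS4 in BMP it ran from -0.15 to 0.035 for Sox2, -0.092 to 0.15 for Sox5 and -0.013 to 0.073 for Sox9. For BL6 against ANS4 in BMP/FGF it ran from -0.0095 to 0.018 for Sox1 and -0.061 to 0.071 for Sox9.

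The study does not state whether equal replicate numbers mark cultures treated together. Deviations of same-numbered libraries from their group means correlated between -0.18 and 0.31 over 9967 well-expressed genes. In ANS4 the value was 0.31 for EGF/FGF with BMP, and -0.18 and -0.12 for BMP/FGF with these. With 2 libraries per group, these correlations cannot show whether the samples were paired. With the replicate number as a block, 8, 8 and 2 members were called in the 3 comparisons of conditions, as without it, and 2 in place of 3 for the line difference in BMP against EGF/FGF, where Sox8 had FDR = 0.0621. With the ANS4 BMP/FGF numbers crossed, an alternative chosen after seeing the data, the counts of calls were 8, 8 and 2, and 3 for that line difference.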

Other observations

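For each member, the tested genes whose log2 CPM followed it most closely over the 12 libraries were listed, with no test. The libraries fall into 3 conditions, so that these correlations mainly describe the differences between conditions. Sox9 was followed most closely by Spaca9 (r = 0.998), Elmod3 (r = 0.998), Trappc10 (r = 0.998), and Sox6 by Kdm5b (r = 0.995), Mpped2 (r = 0.995), Ccni (r = 0.994). Sox1 was followed by Zfp703 (r = 0.995) and Tnrc18 (r = 0.990). The genes nearest to Sox2 were Zeb2os (r = 0.989), Osbpl2 (r = 0.986), Tceanc2 (r = 0.984), and those nearest to Sox3 were Wscd1 (r = 0.984), Maged1 (r = 0.978), Rgl2 (r = 0.977). For Sox5 they were Aptx (r = 0.988), Enah (r = 0.987), Ikbkg (r = 0.987), for Sox8 Rundc3a (r = 0.990), Vsig10l (r = 0.986), Enox1 (r = 0.983) and for Sox21 Lgmn (r = 0.992), Rftn2 (r = 0.990), Ncald (r = 0.989).

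Sox1ot, the noncoding gene around Sox1, was higher in BMP than in EGF/FGF by 2.35 ± 0.15 (SE, FDR = 1.11e-10) and lower in BMP/FGF than in BMP, at -1.45 ± 0.14 (SE, FDR = 4.89e-07) on the log2 scale, and Sox2ot, around Sox2, was higher in BMP than in EGF/FGF by 0.42 ± 0.081 (SE, FDR = 0.000133). Between BMP/FGF and BMP the lines differed, BL6 minus ANS4, by -0.93 ± 0.16 (SE, FDR = 0.00131) for Sox1ot. For Sox2ot they differed by -0.49 ± 0.094 (SE, FDR = 0.00268). Sox1ot was lower with FGF2 in both lines. Mean Sox2ot went from 53.5 to 58.0 CPM in ANS4 and from 68.4 to 52.9 CPM in BL6. Both genes were looked at because they overlap members, after the values were seen.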
